A study of Mus musculus with 2 samples.

Results

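The 2 Y RNA genes of the mouse, Rny1 and Rny3, were read together with the genes of the main proteins that bind their transcripts, Trove2 (current symbol Ro60) and Ssb, which encodes the La protein. The members were chosen by symbol: every probe set of the deposited array table was taken that listed 1 of these 4 symbols, alone or with another. This gave 4 of the 23370 genes that have a probe set of their own, measured by 5 of 33793 probe sets, 2 for the Y RNAs and 3 for the binding proteins. The set was picked with the members' differences between the cultures already known, so these are given as a description and without a test.

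The cells were ES-D3 mouse embryonic stem cells of strain 129S2/SvPas, an established pluripotent line. One group was grown on a standard 6-well plate and the other in a microfluidic chamber with minimal perfusion. Both were seeded at 20000 cells per square centimetre, kept for 3 days in 15% serum with 1000 U of leukaemia inhibitory factor (LIF), and lysed for total RNA, which was hybridised to Affymetrix Mouse Gene 2.0 ST arrays. There was 1 array per group, so culture and array cannot be told apart and no p-value, standard error or replicate spread exists for any difference.

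Y RNAs are short noncoding RNAs made by RNA polymerase III. They fold back into a stem, whose base is held by the ring-shaped Ro60 protein, and end in a run of uridines that La binds while the transcript matures. They are known for their part in surveillance of misfolded RNAs by Ro60, for a role in starting DNA replication that was described in vertebrate systems, and because Ro60 and La are autoantigens in Sjögren syndrome and lupus.

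Both Y RNAs had much lower signal in the microchamber, while the transcripts of the proteins that bind them lay close to their plate values. Values are log2 signals after RMA normalization by the authors, and every difference is microchamber minus 6-well plate. The authors' deposited table writes the difference the other way round. Rny1 lies on chromosome 6 (47788070 to 47788180, GRCm38) and is 111 bases long. Its probe set read 10.37 in the plate culture and 8.997 in the chamber culture, a difference of -1.37, which leaves 38.6% of the plate signal and is 2.59-fold lower. Rny3 lies on the same chromosome (47781624 to 47781724) and is 101 bases long. It read 8.55 in the plate culture and 6.75 in the chamber culture, a difference of -1.81, which leaves 28.6% of the plate signal and is 3.50-fold lower. The Rny3 difference was the larger of the pair by 0.44 log2 units. In bulk RNA, fewer cells with a transcript and less transcript per cell cannot be told apart.

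Trove2 encodes Ro60, the protein that caps the Y RNA stem, and lies on chromosome 1 (143750790 to 143777063). Its probe set read 8.62 in the plate culture and 8.49 in the chamber culture, a difference of -0.14. La, the product of Ssb on chromosome 2 (69861562 to 69871846), protects the newly made ends of RNA polymerase III transcripts. The probe set with the symbol Ssb alone read 11.53 in the plate culture and 11.46 in the chamber culture, a difference of -0.07. A further probe set lists Ssb together with Mettl5, an RNA methyltransferase gene whose annotated span overlaps that of Ssb by 652 bases. It read 8.80 in the plate culture and 8.22 in the chamber culture, a difference of -0.58. The table held no probe set for Mettl5 alone, so this signal cannot be given to either gene. The Ssb probe sets thus differed from each other by 0.52 log2 units. Their mean was -0.32.

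**Figure D1:**
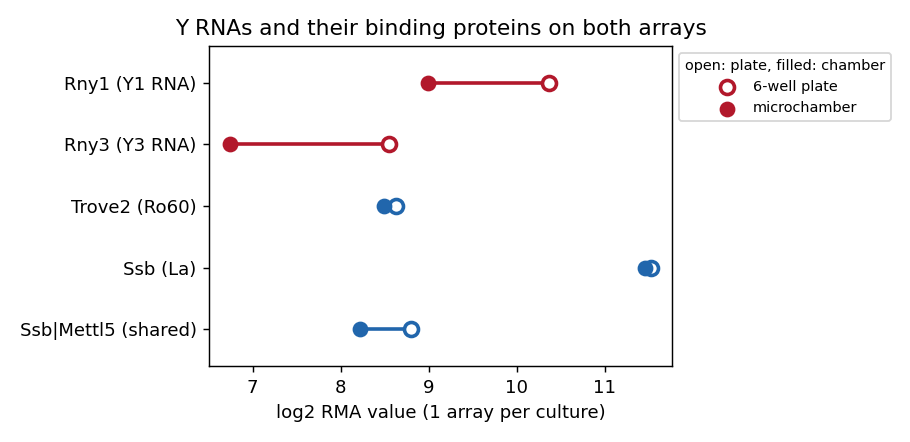
Log2 RMA value (x axis) of each probe set of the Y RNAs (red) and of their binding proteins (blue), with an open circle for the 6-well plate and a filled circle for the microchamber, 1 array each. The chamber circles of Rny1 and Rny3 lie 1.37 and 1.81 units to the left of their plate circles, against 0.14 for Trove2 and 0.07 for Ssb alone.

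As a group, the Y RNAs had a mean difference of -1.59 and the binding proteins one of -0.23. The RNA mean lay -1.36 log2 units from the protein mean, so that the RNAs kept 39.0% of their plate signal relative to the transcripts of their proteins. Without the shared Ssb probe set this distance was -1.49. All 5 probe sets lay below 0. Among the 20291 probe sets with 1 symbol and a usable level, 52.2% also lay below 0. A usable level means that the brighter of both values reached the 20th percentile of its array, taken over named probe sets (5.16 for the plate and 5.17 for the chamber). All 5 member probe sets passed this limit and also lay above the median.

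The size of the Y RNA differences was uncommon on this pair of arrays. Of the 20291 probe sets, 90 were at least 2-fold lower in the microchamber, which is 0.444%, and 70 were at least 2-fold higher, which is 0.345%. Rny1 and Rny3 were both among the 90, as the choice of the set implies. Counting Rny3 itself, 12 probe sets were as low or lower. For Rny1 the number was 38. By contrast, 50.1% of probe sets lay at least as far from 0 as Trove2, and 73.3% at least as far as Ssb alone. For the shared Ssb probe set this share was 5.37%. As a measure of disagreement within the pair of arrays, the 801 genes with 2 probe sets of their own had a within-gene standard deviation of 0.21 for the difference. That value covers probe behaviour only and says nothing of the spread between cultures.

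**Figure D2:**
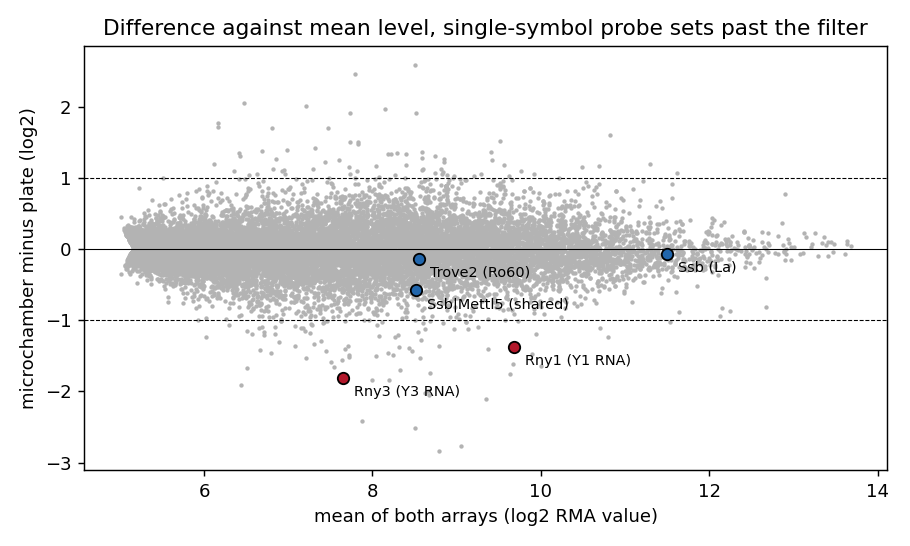
Difference between the arrays (y axis, log2, microchamber minus plate) against the mean of both arrays (x axis, log2 RMA value) for the 20291 single-symbol probe sets past the filter (grey) and the 5 member probe sets (red for Y RNAs, blue for binding proteins). Dashed lines mark 2-fold differences. Rny1 and Rny3 lie under the lower dashed line, and the probe sets of Trove2 and Ssb lie between the lines.

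The genes whose difference came closest to that of each Y RNA were taken among single-symbol probe sets above the median level. For Rny1 they were Gap43, a growth cone protein, at -1.36, Arhgap29, a GTPase-activating protein, at -1.36 and Plekha2, a phosphoinositide-binding adaptor, at -1.38. For Rny3 they were the collagen prolyl hydroxylase P4ha1 at -1.84, the annexin Anxa2 at -1.84 and the transcriptional repressor Bhlhe40 at -1.75. Likeness here rests on 1 difference between 2 arrays and describes only its size.

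The Y RNA genes are neighbours, with 6345 bases between the end of Rny3 and the start of Rny1. A ribosomal protein pseudogene, Rpl31-ps7, is annotated between them. The nearest measured gene after Rny1 is Pdia4, a protein disulfide isomerase of the endoplasmic reticulum, 7960 bases away. Its probe set, which also lists the microRNA gene Mir704, read 9.09 in the plate culture and 9.18 in the chamber culture, a difference of 0.09. The next, the zinc finger gene Zfp786, was at 0.29. On the other side the nearest measured gene, 186 kb away, was Ezh2, the histone methyltransferase of Polycomb repressive complex 2, at -0.53. Next came Cul1, a ubiquitin ligase scaffold, 255 kb away and at 0.19. Leaving microRNA genes aside, 13 genes within 500 kb were measured, 3 on the Rny3 side and 10 on the Rny1 side. Of these, 7 were below 0 and 6 above 0, with a range of -0.53 to 0.29 and a median of -0.01. None of them was 2-fold lower, as is true of nearly all genes, since 0.443% of the 19184 genes with a usable level were.

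**Figure D3:**
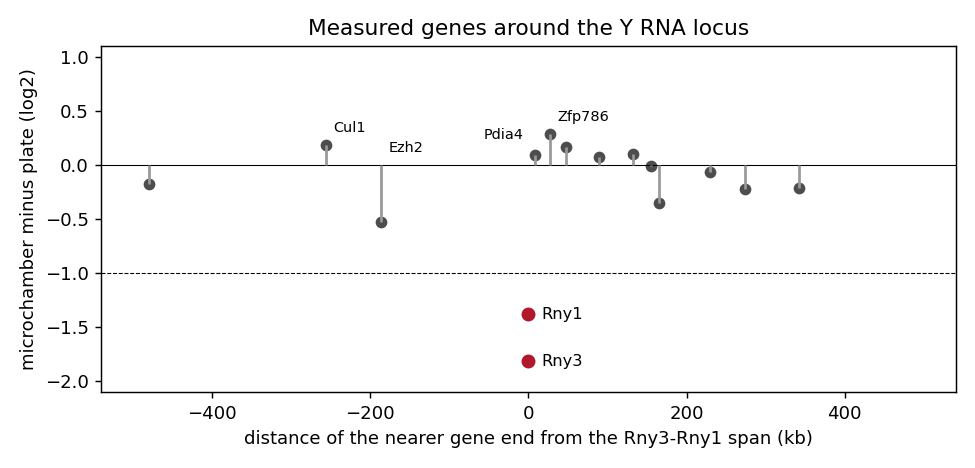
Difference between the arrays (y axis, log2, microchamber minus plate) for Rny1 and Rny3 (red) and the 13 measured genes within 500 kb (grey, the nearest pair on each side named), placed by the distance of their nearer end from the span that holds both Y RNA genes (x axis, kb). The dashed line marks 2-fold lower. The neighbours lie between -0.53 and 0.29, and both Y RNAs lie under the dashed line.

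Because Y RNAs are short, other short RNAs on the arrays were examined. This comparison was added after the Y RNA values were seen. The Y RNAs were chosen with their low values known, so their place below other short RNAs follows in part from that choice. A total of 322 other noncoding genes annotated at 200 bases or less passed the level limit, among them 242 microRNA genes, whose probe sets cover hairpin or precursor sequence, and 73 small nucleolar RNA (snoRNA) genes, which guide RNA modification. None of the 322 was at least 2-fold lower and 3 were at least 2-fold higher, against 0.443% lower and 0.344% higher among all 19184 genes past the limit. Their median was 0.06, against -0.01 for all genes. The lowest of the 322 were the microRNA gene Mir5125 at -0.83, the snoRNA AF357426 at -0.76 and the snoRNA Snora44 at -0.71. The highest were Mir1192 at 1.70, Mir290 at 1.59 and Mir18 at 1.34. Genes without a RefSeq match of this length were not among the 322. Over all 251 microRNA symbols past the limit, the lowest value was -0.87, from a gene outside the 322.

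Genes closer to the Y RNAs in length gave a similar picture. The 192 with a length from 80 to 130 bases had a median of 0.07 and a lowest value of -0.71. None was 2-fold lower, against 0.443% of all genes, so a set of this size would hold few such genes or none. Many of the short genes have low signal, where differences are compressed. Of the 322, 81 reached a log2 value of 8 on their brighter array, as both Y RNAs did. These 81 ranged from -0.83 to 1.59 with a median of 0.06. None of them was 2-fold lower, which is again near the share of all genes. The 77 genes with snoRNA or small Cajal body RNA symbols had a median of 0.02, with 37 below 0 and 40 above 0. Of 5 measured single-symbol genes named Rnu, 4 passed the level limit. These, a mix of spliceosomal RNAs and snoRNAs, ranged from -0.27 for Rnu3a, a U3 snoRNA gene, to 0.08 for Rnu11, which belongs to the minor spliceosome. Probe sets shared by copies of the U1 RNA gene were at 0.34.

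**Figure D4:**
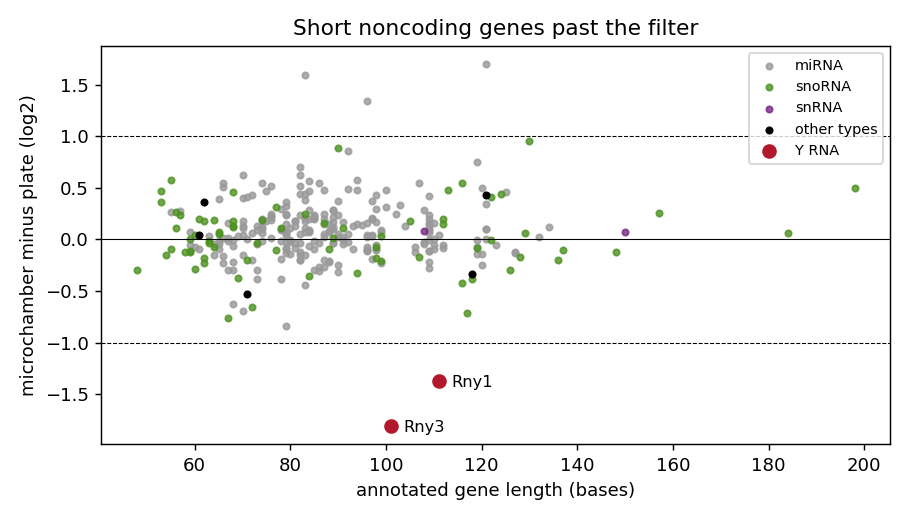
Difference between the arrays (y axis, log2, microchamber minus plate) against annotated gene length (x axis, bases) for 322 noncoding genes of 200 bases or less that passed the filter, by RefSeq type, and for Rny1 and Rny3 (red). Dashed lines mark 2-fold differences. The other short genes lie between -0.83 and 1.70, above both Y RNAs.

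Other products of RNA polymerase III with names were few on the array. The nuclear RNA Rn7sk, which holds the transcription elongation factor P-TEFb inactive and has the same kind of gene-external promoter as the Y RNAs, had 2 probe sets at -0.07 and -0.04. It read 13.56 in the plate culture and 13.51 in the chamber culture as their mean, near the top of the scale of both, where differences can be compressed. Rpph1, the RNA of ribonuclease P, which trims the leading end of transfer RNAs, read 11.71 in the plate culture and 11.49 in the chamber culture, a difference of -0.22. Rmrp, the RNA of the related mitochondrial RNA processing ribonuclease, was measured only by probe sets shared with Ccdc107, at -0.31 and -0.41. Vaultrc5, a vault RNA, read 5.07 and 4.95 on the plate and chamber arrays, under the level limit. These 4 RNAs lay below 0, as did 52.3% of all genes past the limit. None was 2-fold lower, as is true of nearly all genes, since 0.443% of them were. The annotated genes of these 4 RNAs span 275 to 345 bases, more than those of the Y RNAs. The lengths of the RNAs themselves were not examined. Rn5s20 (current symbol n-R5s136), a 5S ribosomal RNA gene of 121 bases that was looked at after its value was seen, went the other way. Ribosomal 5S RNA is also made by RNA polymerase III, from a gene-internal promoter. Its probe set read 8.28 in the plate culture and 8.71 in the chamber culture, a difference of 0.43. The 5S genes are near-identical copies, so its signal may be shared among them.

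Genes for proteins that make, mature or bind such RNAs were read from lists, and most of their transcripts lay near their plate values. Protein levels were not measured. Among 11 measured genes for proteins reported to bind Y RNAs or Y RNA complexes, 10 lay below 0, against 52.3% of all genes. Their median was -0.10 against -0.01. None was 2-fold apart. For this and the following lists, the shares of all genes are 0.443% for 2-fold lower and 0.344% for 2-fold higher, so lists of this size would hold few such genes or none. Fip1l1, a subunit of the cleavage and polyadenylation machinery, was the lowest at -0.35, and the AU-rich element binding protein Elavl1 followed at -0.22. The splicing regulators Ptbp1 at 0.06 and Puf60 at -0.01 were the highest. Igf2bp1 and Pnpt1, which share probe sets with other symbols, were at -0.13 and 0.01.

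The La-related proteins carry the same RNA-binding La module as Ssb. The 6 measured genes of this family had a median of 0.04. Larp1b read 7.82 in the plate culture and 6.92 in the chamber culture, a difference of -0.90. The translation regulators Larp1 and Larp4 were at 0.08 and 0.00, Larp4b was at 0.21, the collagen mRNA-binding protein Larp6 was at 0.07 and Larp7, which binds the end of the 7SK RNA, was at -0.05. Larp6 lay near the floor, at 5.35 and 5.42. Of the other proteins that have been called Ro antigens, the ubiquitin ligase Trim21 (Ro52) was at -0.32 and the chaperone Calr was at 0.03.

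Larp7 also belongs to the 7SK complex, of which 7 protein genes were measured. Hexim1, the P-TEFb inhibitor that acts through 7SK RNA, read 9.38 in the plate culture and 10.44 in the chamber culture, which is 2.08-fold higher. It was the 1 gene past 2-fold in these lists. The P-TEFb cyclin Ccnt1 was at 0.40, the 7SK capping enzyme Mepce at 0.34 and the P-TEFb kinase Cdk9 at -0.09. The median of the 7 was 0.10.

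Transcripts of the RNA polymerase III subunits showed no common direction. Of 13 measured subunit genes 6 lay below 0 and 7 above 0, with a median of 0.01 and none 2-fold apart. The alternative subunits Polr3gl and Polr3g, which replace each other in the enzyme, were at -0.78 and -0.14. Polr3d was at 0.24, and Polr3c, next lowest after Polr3gl, was at -0.21. Of 10 factors that act on gene-external promoters, 5 lay below 0 and 5 above 0, with a median of -0.02. Zfp143, which activates such promoters from their distal element, was lowest at -0.57. The subunits of the SNAPc complex, which binds their proximal element, were split, with Snapc1 at -0.47 and Snapc4 and Snapc5 at 0.44 and 0.37. Brf2, the initiation factor subunit for these promoters, was at -0.12. The 8 other polymerase III factors had a median of 0.16. Gtf3c6, a subunit of TFIIIC, was at 0.64, and Brf1, the initiation factor subunit for gene-internal promoters, at 0.47. Gtf3a, measured only with Mtif3, was at -0.32. Gtf3c3 was at -0.23 and the polymerase III repressor Maf1 at -0.19.

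Genes for RNA end trimming, decay and export came next. None was 2-fold apart, which is also true of nearly all genes. The 16 measured genes of 3′ end maturation and decay had a median of -0.12, with 11 below 0. The cytoplasmic exosome nuclease Dis3l was lowest at -0.82, followed by the exosome cofactor Zcchc7 at -0.47. The highest of these 16 were Papd5, an oligoadenylating enzyme, at 0.23 and the exosome subunit Exosc5 at 0.16. Members of this list measured only by probe sets shared with another gene were Toe1, a deadenylase that trims small nuclear RNAs, with Tesk2 at 0.74, and the exosome subunits Exosc4, with Oplah at -0.25, and Exosc6, with Aars at 0.13. Parn, a deadenylase that trims noncoding RNA ends, was at -0.13. Of 4 export genes, Xpo5, which carries short structured RNAs out of the nucleus, was at 0.26, the transfer RNA exporter Xpot at -0.11, the Ran regulator Ranbp1 at -0.08 and the Ran exchange factor Rcc1 at -0.33. Ran itself was at -0.09 in a probe set that lists another symbol too.

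**Figure D5:**
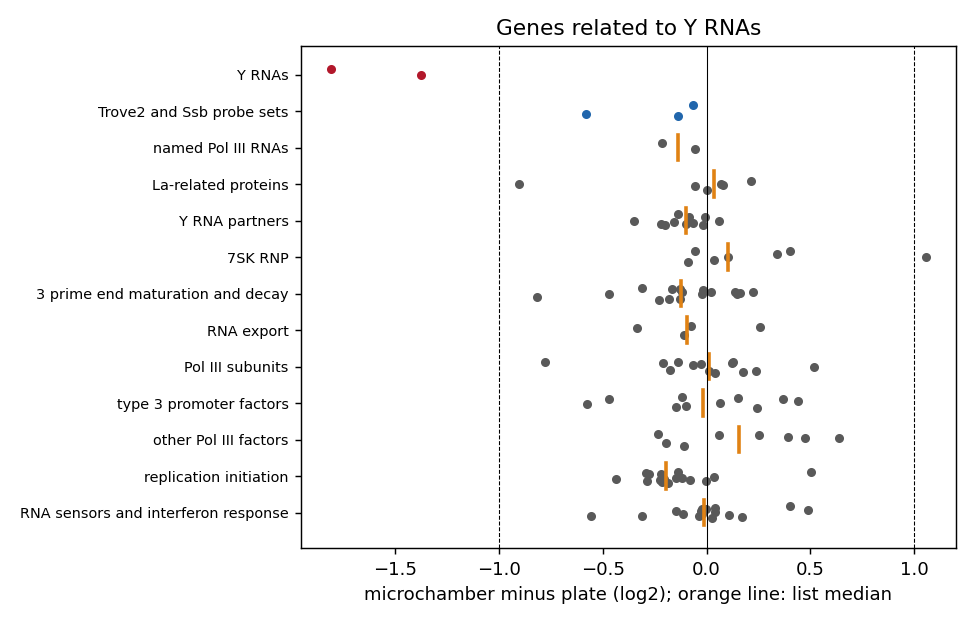
Difference between the arrays (x axis, log2, microchamber minus plate) for each gene past the filter in lists of genes related to Y RNAs (grey), with the list median as an orange line, and for the probe sets of the Y RNAs (red) and binding proteins (blue). Dashed lines mark 2-fold differences. Among the listed genes only Hexim1, at 1.05, lies past a dashed line.

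Genes of replication initiation, the process in which Y RNAs have been placed, were slightly lower in the microchamber for the most part. Of 16 measured, 14 lay below 0 and none was 2-fold apart, with a median of -0.20, against 52.3% of all genes below 0. The licensing factor Cdt1 was lowest at -0.44, and the origin recognition subunit Orc1 and the helicase subunit Mcm6 were both at -0.29. Orc5 at 0.50 and Mcm5 at 0.04 were above 0. RNA sensors and interferon response genes, a list relevant because free Y RNAs can activate innate sensors, had a median of -0.01 over the 16 that passed the limit. Ddx58, the RIG-I sensor, was highest at 0.49, followed by the transcription factor Irf3 at 0.40. Tlr7, a sensor of single-stranded RNA, read 5.01 and 5.03, under the limit on both arrays.

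The labelled cell type was checked against markers. Of 8 embryonic stem cell markers all passed the level limit. On the plate and chamber arrays, Nanog read 12.10 and 12.17, Sox2 11.86 and 12.11 and Zfp42 12.58 and 12.81. Tdgf1 read 13.08 and 12.26 and Utf1 11.91 and 11.69. Pou5f1 read 7.74 and 8.10, Esrrb 8.16 and 8.36 and Dppa5a 6.57 and 6.27. Tdgf1, the Nodal co-receptor, was at -0.82, Dppa5a at -0.30 and Utf1 at -0.22. The other 5 markers were above 0, and the list median was 0.14. Of 8 fibroblast or feeder markers, 7 passed the limit and all 7 were lower in the chamber, against 52.3% of all genes, with a median of -0.35. Over all 8, plate values ran from 5.03 for Lum to 7.97 for Pdgfrb, and chamber values from 5.08 for Lum to 7.48 for Pdgfrb. Whether fibroblasts or feeder cells were present was not tested, nor was any part of such cells in the Y RNA difference. Endoderm markers had a median of 0.02 and neural markers one of 0.00. Among the neural markers Nes was at -0.70 and Tubb3 at 0.43.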

How the data were processed

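Total RNA of 2 cultures was measured on 1 array each. Per the series design text and the file headers, the deposited values are log2 signals that the authors background-corrected, summarised per transcript cluster (here, probe set) and normalized between arrays with RMA. The design text adds a raw signal filter whose lower bound is the 20th percentile. Software was Affymetrix Expression Console 1.4.1 and Transcriptome Analysis Console 3.0, per the submitters' processing notes. RMA gives both arrays the same distribution, so a shift of most genes would not be visible. The authors' deposited absolute fold is a ratio without direction, and their log2 fold change equals plate minus chamber within 1e-05. The series value table held the same values.

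Differences were computed here as microchamber minus plate. Of 33793 probe sets, 24708 had 1 symbol, 2305 several, 6756 none and 24 a symbol turned into a date. Probe sets of 1 gene were averaged, for the members including the shared Ssb probe set. Levels were not compared between genes. Symbols were matched to RefSeq (GRCm38), which supplied coordinates and lengths. The Y RNA sequences are not shown here. The number of arrays limits the precision, and no test was possible. Counts use 1 log2 unit (2-fold). The counting was checked on simulated data with 200 planted shifts well past that threshold, which does not measure the reliability of the counts. In each list the genes past 2-fold and the highest and lowest pair are named, and all members of the short lists; Rny1 and Rny3 also bring their nearest genes in difference and on the chromosome. Some genes that this rule names are not reported here. Further genes were named after their values were seen: Parn, Xpot, Ranbp1, short RNAs, Polr3g, Brf2, Ccnt1, Cdk9, Mepce, Igf2bp1, Pnpt1, Mcm6, Tlr7 and the markers. The members and lists were chosen with earlier results of these data known. Analysis used Python 3.11.15, pandas 2.3.3 and statsmodels 0.14.6 (loess, span 0.3).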

Additional observations from a re-analysis of the deposited data

How the results depend on the processing

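Rny1 and Rny3 moved by at most 0.02 log2 units with removal of a loess trend, and Trove2 by at most 0.01. The series value table, the brightest probe set and single-symbol probe sets could not move these genes. Each has 1 probe set with 1 symbol, and the series value table held the same values. Centring could not move the members, since the median difference of all probe sets was 0. For the counts it used the median of the probe sets past the filter, -0.01. The Ssb difference moved from -0.32 to -0.066 with its brightest probe set and to -0.066 with single-symbol probe sets, because both leave out the probe set shared with Mettl5. The distance of the Y RNAs from their binding proteins was -1.36, and it was -1.58 without Rny1 and -1.14 without Rny3. Leaving out Trove2 or Ssb gave -1.27 and -1.45. With a threshold of 0.5 log2 units, 862 probe sets were lower and 743 higher, in place of 90 and 70. Other filters, centring, trend removal and probe sets with any symbol kept these counts between 83 and 99 lower and 70 and 78 higher. Of 116 alternatives, 110 stayed within the within-gene standard deviation of 0.21, or within 1.5 times for counts. That number includes the settings that could not move a value. Most list medians were themselves closer to 0 than 0.21, so they could change sign and still be counted as staying. Among those that did, the embryonic stem cell markers went from 0.14 to -0.03 and the La-related proteins from 0.04 to -0.10, both with the mean. The Rnu genes went from -0.05 to 0.07 without the filter. Medians of the 19 gene lists that had members moved by at most 0.17, for the mean of the embryonic stem cell markers. The symbol patterns for 5S and transfer RNA genes matched no symbol as the array table writes it, although Rn5s20 has a current symbol that fits the first. The comparison without the shared probe set and the short RNA comparison were added after seeing the data. No paired analysis was possible because each group had 1 array. Low signals compress differences, so small values near the floor do not show equal expression.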

Other observations

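RNAs outside the lists were also looked at after the Y RNA values were seen. Terc, the telomerase RNA, which is made by RNA polymerase II, read 11.09 in the plate culture and 10.67 in the chamber culture, a difference of -0.42. Among the short RNAs above the level limit, Snora62 was the highest snoRNA at 0.96.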
